A study of Homo sapiens with 4 samples.

Results

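The genes described here encode the sodium leak channel NALCN, its large partner proteins UNC79 and UNC80, and the voltage-gated sodium channel subunits SCN1A, SCN2A, SCN3A, SCN4A, SCN8A and SCN9A. These 9 of the 58174 genes in the deposited tables were found by matching gene identifiers to the listed symbols in GENCODE release 29. They were chosen from earlier results of the same contrast, so their levels and calls are given as a description and carry no test. 8 of the 9 passed the filter on low counts, out of 18984 genes that did. SCN1A did not.

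RNA was sequenced from 4 libraries of 293FT, a human embryonic kidney line transformed with SV40 large T antigen. 2 libraries had the genotype NIPBLwt and 2 had NIPBLmut. NIPBL encodes the protein that loads cohesin onto chromosomes, and the series names Cornelia de Lange and CHOPS syndromes in its title. All 4 libraries came from untreated cells of that line under the same culture protocol. The kind of mutation, the number of clones and whether the replicates were separate cultures are not stated in the labels. The p-values below therefore cover the spread among these 4 libraries, and that spread may be technical.

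NALCN forms a channel that lets sodium leak into the cell at rest and helps to set the resting membrane potential, above all in neurons. It works as a complex with UNC79, UNC80 and the membrane protein FAM155A. The SCN genes encode the pore-forming subunits that open on depolarisation and carry the action potential, with different members prominent in brain, peripheral sensory neurons and skeletal muscle, and small beta subunits and intracellular partners that tune them.

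Library totals ran from 31545743 to 33161120 expected counts, the reads that RSEM assigned to genes. Levels are in CPM, counts scaled to a common library total with trimmed mean of M values (TMM) factors, and 3 counts corresponded to 0.0862 to 0.1004 CPM. NIPBL itself had a wild-type mean of 43.1 ± 1.87 CPM and a mutant mean of 61.5 ± 0.658 CPM (SD, n = 2 each), and its edgeR adjusted p of 0.057 missed the 0.05 threshold. Of 11 markers of the 293 line, 10 were detected well enough to be tested. VIM, LIN28B and CDH2 were each above 100 CPM in every library, PAX2 was under 0.7 CPM and PAX8 was at most 0.172 CPM.

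Among the genes of the leak channel complex, NALCN and UNC80 were close to the detection limit in wild type and clearly detected in mutant cells. NALCN, the pore-forming subunit, had 17 and 10 counts in the wild-type libraries and 393 and 410 in the mutant libraries. In CPM these are 0.548 and 0.335 against 11.6 and 11.8. Both mutant libraries were far above both wild-type libraries and lay close to each other. The group means were 0.441 ± 0.151 and 11.7 ± 0.107 CPM, a log2 fold change of 4.71 (SE 0.29), or 26.2-fold. NALCN was called higher in the fit over all genes and in each of the 16 alternative settings that were run. In bulk RNA, more cells with the transcript and more transcript per cell cannot be told apart. The gene lies on chromosome 13 from 101053776 to 101416492 on the minus strand of hg38 (ENSG00000102452) and spans 363 kb with 49 exon blocks. An antisense gene, NALCN-AS1, shares 408 exonic bases with it and had at most 1 count in any library.

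UNC80, a very large scaffold protein that bridges NALCN and UNC79, had 6 and 1 counts in wild type and 86.8 and 98 in mutant libraries, or 0.193 and 0.0335 against 2.57 and 2.82 CPM. The groups did not overlap, and the mutant level stood well above that of 3 counts. The log2 fold change was 4.51 (SE 0.57) and UNC80 was called higher. Since the wild-type value rests on few reads, the size is loosely fixed: it was 6.16 without wild-type replicate 1 and 3.77 without wild-type replicate 2. With the deposited effective lengths as offsets it was 3.09 and the call was lost. The call was also lost in both fits on TPM, a level corrected for transcript length. The effective length assigned to UNC80 was 2557 and 2706 bases in wild type against 9093 and 5958 in mutant libraries. UNC80 lies on chromosome 2 from 209771993 to 209999300 on the plus strand (ENSG00000144406).

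UNC79, the other scaffold of the complex, was at 1.10 and 0.703 CPM in the wild-type libraries, against 1.78 and 2.01 CPM in the mutant ones, from 21 to 70 counts. Its groups did not overlap either, but the log2 fold change of 1.07 (SE 0.34) was not called. UNC79 (ENSG00000133958) lies on chromosome 14 from 93333219 to 93707876, plus strand.

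FAM155A, the transmembrane subunit that NALCN needs at the cell surface, is not among the 9 genes and comes from a list of the other known subunits. It had 39 and 23 counts in wild type and 411 and 404 in mutant libraries. Its mean CPM rose from 1.01 ± 0.345 to 11.9 ± 0.391, a log2 fold change of 3.54 (SE 0.28, edgeR adjusted p = 0.0141), and the call held without any single library. Its paralog FAM155B had means of 11.1 ± 0.923 CPM (wild type) and 13.0 ± 0.678 CPM (mutant), and its log2 fold change of 0.22 was not called (edgeR adjusted p = 0.377). In TPM, which corrects for transcript length, the mutant means were 3.31 for NALCN and 1.23 for FAM155A.

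**Figure D1:**
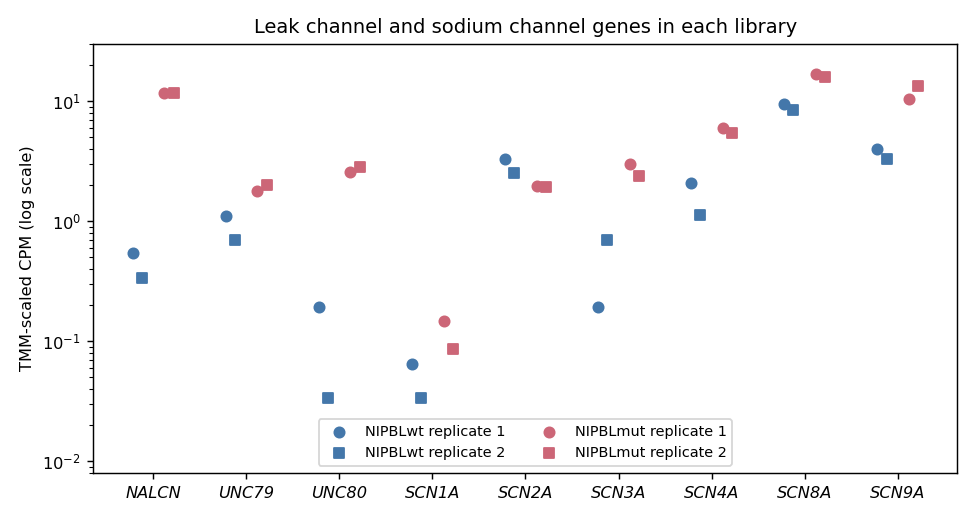
Level of each of the 9 genes in each library, in TMM-scaled CPM on a log axis. Each point is 1 library, blue for wild type and red for mutant, with circles for replicate 1 and squares for replicate 2. The 2 mutant points lie above the 2 wild-type points for 8 genes and below them for SCN2A, and the gap is widest for NALCN and UNC80.

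Among the pore-forming sodium channel subunits, SCN8A was the most abundant in wild type. SCN8A, the main subunit of the axon initial segment and nodes of mature neurons, was at 9.51 and 8.50 CPM in the wild-type libraries, against 16.8 and 15.8 CPM in the mutant ones. The difference was modest beside that of NALCN but the groups were well apart, and the means were 9.0 ± 0.713 and 16.3 ± 0.710 CPM. The log2 fold change was 0.86 (SE 0.15), or 1.81-fold, and SCN8A was called higher. The SCN8A call was lost in 6 of the 16 alternatives. These were the fits without either mutant library, with the neighbourhood offset, on TPM with either pseudocount and with effective length offsets. With the last of these the log2 fold change was 0.49. SCN8A (ENSG00000196876) lies on chromosome 12 from 51590266 to 51812864, plus strand.

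SCN9A, the subunit known from pain-sensing neurons, was at 4.03 and 3.31 CPM in the wild-type libraries, against 10.5 and 13.4 CPM in the mutant ones. The mutant libraries differed from each other by more than the wild-type ones did, yet both were far above them. The log2 fold change was 1.70 (SE 0.22), or 3.25-fold, and SCN9A was called higher. That call was lost without mutant replicate 2 and in the fit on log2(TPM + 0.1). SCN4A, the skeletal muscle subunit, was at 2.10 and 1.14 CPM in the wild-type libraries, against 5.95 and 5.40 CPM in the mutant ones. The groups were apart, with the wider spread in wild type. Its log2 fold change was 1.81 (SE 0.34), and it was called higher, but not without either mutant library. SCN9A (ENSG00000169432) lies on chromosome 2 from 166195185 to 166376001, minus strand, and SCN4A (ENSG00000007314) on chromosome 17 from 63938554 to 63972918, minus strand.

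SCN3A, the subunit prominent in the fetal brain, had 6.33 and 20.8 counts in wild type and 101 and 83.4 in mutant libraries. In CPM these are 0.193 and 0.703 against 2.99 and 2.38, so the wild-type pair differed widely while the groups stayed apart. Its log2 fold change of 2.58 (SE 0.56) was not called, and it was 3.77 without wild-type replicate 2 and 1.91 without wild-type replicate 1. It was called in 11 of the 16 alternatives, DESeq2 and limma-voom among them. SCN2A, the subunit of immature axons and excitatory neurons, went the other way, with 3.32 and 2.54 CPM in the wild-type libraries, against 1.95 and 1.92 CPM in the mutant ones. Its log2 fold change of -0.60 (SE 0.27) was not called, and it was called only without wild-type replicate 2. SCN1A, known from inhibitory interneurons, had between 1.05 and 5.04 counts per library and could not be compared at this depth. The fractional counts of these genes show that RSEM divided some reads between them and other genes. The values used here do not show which other genes these were.

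5 of the 8 tested genes, NALCN, UNC80, SCN4A, SCN8A and SCN9A, were called higher in the mutant, against 3.71% of all tested genes (704 of 18984) and 8.08% of 3464 protein-coding genes in the same range of mean CPM. None was called lower, against 2.1% of all tested genes and 37 of the 3464 genes in that range. None was lower at an unadjusted p under 0.05 in edgeR, against 2626 of all 18984 tested genes and 261 of the 3464. DESeq2 called 6 higher and 0 lower, against 1294 and 1206 of the 18984 and 525 and 91 of the 3464. The groups did not overlap for any of the 9 genes, which was also so for 63.2% of all tested genes. The median log2 fold change of the 8 was 1.75, against -0.01 over all tested genes and 0.21 in that CPM range. Since the choice of genes used this contrast, nothing is read from these counts. Their level was also higher in wild-type replicate 1 than in replicate 2 for 8 of 9 genes, as it was for 66.0% of genes in the CPM range.

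TPM, which corrects for transcript length, allows levels to be compared between genes. In wild type SCN8A was highest at 1.64 TPM (mean of 1.84 and 1.43) and lay above SCN9A at 0.65 TPM. SCN9A, SCN2A (0.515 TPM), SCN4A (0.32 TPM) and NALCN (0.165 TPM) followed, and neighbours in that order overlapped between libraries. Below NALCN, and separate from it, UNC79, SCN3A, UNC80 and SCN1A were all under 0.1 TPM on average. In the mutant the order changed. NALCN came first at 3.31 TPM (3.39 and 3.23), above SCN8A at 2.61 TPM and SCN9A at 2.24 TPM, which overlapped each other. SCN4A at 1.73 TPM and SCN3A at 0.635 TPM came next, each separate from its lower neighbour, and SCN2A at 0.42 TPM overlapped UNC80 at 0.33 TPM. UNC79 was at 0.215 TPM and SCN1A at 0.04 TPM. The summed TPM of the 9 genes was 4.19 and 2.83 in wild type and 11.7 and 11.4 in mutant libraries. The TPM order rests on the effective lengths that RSEM assigned. In mean mutant CPM, NALCN (11.7) was below SCN8A (16.3) and close to SCN9A (11.9). Their mean mutant effective lengths were 3081, 5454 and 4668 bases. Such lengths also varied between replicates, as for SCN4A with 3124 and 7284 bases in the wild-type libraries.

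**Figure D2:**
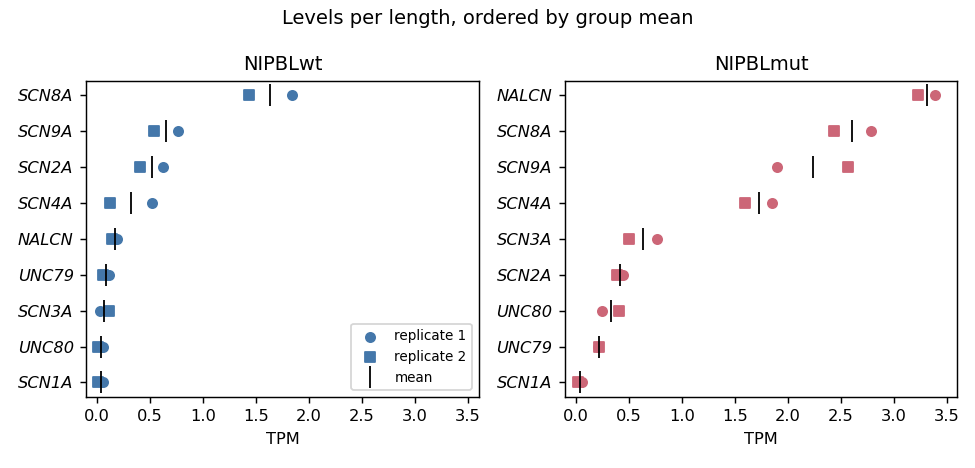
TPM of each gene, with wild type in the left panel and mutant in the right one, each ordered by its own group mean (vertical line), with 1 point per library. NALCN moved from the 5th place in wild type to the first in mutant libraries, while SCN8A moved from the first to the 2nd. These places rest on the effective length assigned to each gene, and in mutant CPM SCN8A was above NALCN.

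The 300 bases around the annotated starts were read from RefSeq on GRCh38.p14, which held 11 entries for 7 of the 9 genes (250 bases before each start and 50 after). SCN3A and SCN4A had none. The first sequences are shown because NALCN and SCN9A were called higher and SCN2A was not, and all carry CG pairs in capitals. The NALCN window is chr13:101416459-101416758 (minus strand), the SCN9A window is chr2:166375895-166376194 (minus strand) and the SCN2A window, 1 of 2 entries, is chr2:165239164-165239463 (plus strand).
NALCN: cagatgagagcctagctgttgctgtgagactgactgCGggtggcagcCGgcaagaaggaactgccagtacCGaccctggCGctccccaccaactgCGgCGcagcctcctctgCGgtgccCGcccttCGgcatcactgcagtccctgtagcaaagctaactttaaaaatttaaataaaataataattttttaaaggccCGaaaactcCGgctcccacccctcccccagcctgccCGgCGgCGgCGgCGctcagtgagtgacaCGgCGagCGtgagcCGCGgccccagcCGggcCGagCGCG
SCN9A: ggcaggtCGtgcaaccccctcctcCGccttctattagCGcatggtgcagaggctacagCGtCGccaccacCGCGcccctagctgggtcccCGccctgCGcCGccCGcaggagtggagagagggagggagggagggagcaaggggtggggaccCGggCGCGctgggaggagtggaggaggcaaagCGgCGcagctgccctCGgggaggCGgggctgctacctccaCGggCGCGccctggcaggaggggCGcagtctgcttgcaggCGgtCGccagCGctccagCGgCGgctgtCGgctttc
SCN2A: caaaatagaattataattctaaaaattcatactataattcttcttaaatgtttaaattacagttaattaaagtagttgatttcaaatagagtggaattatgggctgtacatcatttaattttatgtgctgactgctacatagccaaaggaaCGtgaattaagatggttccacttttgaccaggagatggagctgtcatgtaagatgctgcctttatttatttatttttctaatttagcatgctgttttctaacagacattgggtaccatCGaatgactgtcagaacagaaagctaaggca

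NALCN held 25 CG pairs and SCN9A 28, whereas the SCN2A window held 2 and was 31.7% G and C. The NALCN and SCN9A windows cover the outer 5' ends of their annotated genes. Both SCN2A windows, from 165239164 and 165240810, lie inside that gene, which starts at 165194993. No window covers its outer 5' end, so these counts compare unlike positions. The median over all 35116 windows was 14 pairs, and 41.2% held at least 20. UNC80 held 32 and SCN8A 52, both called higher, but the UNC79 windows, with 21 to 41, belong to a gene that was not called. The other SCN2A window held 1 and the SCN1A windows 2 and 3. The GC box GGGCGG, searched on both strands, was in a window of NALCN, UNC79, UNC80, SCN8A and SCN9A, and in 45.0% of all windows. The TATA box sequence TATAAA, sought at any position, was in 1 SCN2A window and in 11.5% of all. That match lay at the upstream edge of the window, so it is a match of letters only.

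The UNC80 window, chr2:209771582-209771881 (plus strand), is shown because it holds separate matches to both parts of the motif bound by REST, a repressor of neuronal genes. The joined motif was not found in it. Capitals mark the left part TTCAGCACC and the right part GGACAG on either strand.
UNC80: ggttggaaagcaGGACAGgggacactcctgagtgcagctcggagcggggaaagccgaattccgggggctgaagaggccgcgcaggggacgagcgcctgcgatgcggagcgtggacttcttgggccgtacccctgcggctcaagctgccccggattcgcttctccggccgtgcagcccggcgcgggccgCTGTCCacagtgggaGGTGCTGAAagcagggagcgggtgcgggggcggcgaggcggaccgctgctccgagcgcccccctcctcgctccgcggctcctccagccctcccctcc

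The left part lay on the minus strand at bases 204 to 212 of the window, and the right part on the minus strand at bases 189 to 194 and on the plus strand at bases 13 to 18. There were 9 bases between the 2 minus-strand parts. The joined form that was searched for has 2 bases between them. It was not in this window, and was in 5 of all 35116 windows. The left part was in 0.376% of all windows, the right part in 20.5% and both at any distance in 0.114% (40 windows). Among the other genes, 1 UNC79 window held the right part. A match is a description of the letters only. The means of REST mRNA were 45.3 ± 0.970 CPM (wild type) and 34.1 ± 0.877 CPM (mutant), a log2 fold change of -0.41 (SE 0.11) that was not called (edgeR adjusted p = 0.0826). Of 8 genes of the REST repressor complex, RCOR2, a corepressor, was called higher (log2 fold change 0.95, edgeR adjusted p = 0.0499) and none lower. Of all tested genes, 3.71% were called higher and 2.1% lower. The unadjusted p in edgeR was under 0.05 for 6 of the 8, 1 higher and 5 lower, against 29.8% of all tested genes. DESeq2 called 1 higher and 1 lower, against 1294 and 1206 of all 18984 tested genes. The median log2 fold change of the 8 was -0.37. The RCOR2 call was lost in 8 of the alternative settings.

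SCN3A, SCN2A, SCN1A, SCN9A and SCN7A lie together on chromosome 2 between 165087522 and 166494326, a stretch of 1.41 Mb with 3 other genes, CSRNP3, GALNT3 and TTC21B. The fold changes differed in sign along it. SCN3A (2.58) and SCN9A (1.70) were higher in the mutant, while SCN2A (-0.60), CSRNP3 (-0.19), GALNT3 (-1.04, edgeR adjusted p = 0.0751) and TTC21B (-0.10) had negative values, all as log2 fold changes and only SCN9A called. SCN7A had 0, 1, 9 and 11 counts and was not tested. SCN2A and SCN3A (chromosome 2, 165194993 to 165392310 on the plus strand and 165087522 to 165204067 on the minus strand) overlap by 9075 bases on opposite strands, with 0 annotated exonic bases in common. An antisense gene over SCN3A, AC019197.1, shares 975 exonic bases with it and had 3, 1, 5 and 11 counts.

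**Figure D3:**
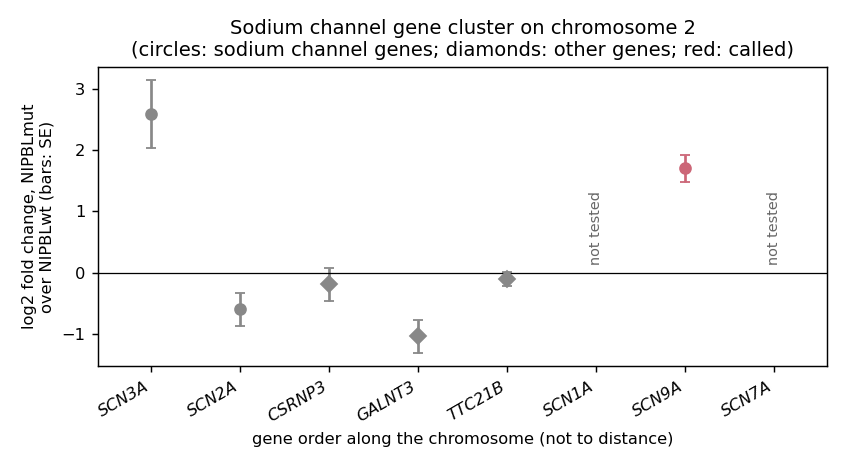
Log2 fold change of mutant over wild type for the 6 tested of the 8 genes of the chromosome 2 cluster, in their order along the chromosome, with bars for the standard error. SCN1A and SCN7A were not tested and have no value. SCN3A and SCN9A stand above 0, while SCN2A, CSRNP3, GALNT3 and TTC21B between and beside them lie below it.

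The nearest tested genes beside NALCN did not share its change: TMTC4 had a log2 fold change of 0.19 and TPP2 of -0.46 (edgeR adjusted p = 0.125). Beside UNC80 lies MAP2, a neuronal microtubule protein, whose mean CPM rose from 0.361 to 1.84 (log2 fold change 2.33, edgeR adjusted p = 0.0309). RPE on its other side fell by 0.66 (edgeR adjusted p = 0.0447). Of the other neighbours, SLC4A8 beside SCN8A was at 0.75 (edgeR adjusted p = 0.087), PRR29 beside SCN4A at 1.43 (0.067) and CD79B beside SCN4A at 1.52 (0.136), none called. BTBD7 and PRIMA1 beside UNC79 were at -0.36 and -0.17, FIGNL2 beside SCN8A at 0.45, COBLL1 beside SCN3A at -0.75 and AC073050.1 beside SCN9A at 0.51. With the neighbourhood offset, which removes the median change of 25 protein-coding neighbours to the left and 25 to the right, SCN4A and SCN8A were no longer called. NALCN, UNC80 and SCN9A still were. The median log2 fold change of those neighbours was -0.46 around SCN2A and SCN3A, -0.48 around SCN9A and -0.43 around UNC80. It was 0.07 to 0.27 around NALCN, UNC79, SCN4A and SCN8A. With the neighbourhood offset the log2 fold change of SCN2A was -0.14, so most of its negative value was shared with its neighbours.

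The genes share a long span. Their median was 197 kb, against 34.0 kb over 14456 tested protein-coding genes, and 8 of 9 were over 100 kb, against 21.1%. Among the 3044 tested protein-coding genes over 100 kb, 203 (6.67%) were called higher, with a median log2 fold change of 0.08. Over all 14456 tested protein-coding genes 642 were called higher, with a median of -0.01. SCN4A was the short one at 34.4 kb. The genes whose level followed that of NALCN most closely over the 4 libraries, by Euclidean distance of log2(CPM + 0.5) among 14455 protein-coding genes, were ASTN1 (0.35), MACC1 (0.38) and NELL1 (0.38), on chromosomes 1, 7 and 11.

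Among further sodium channel subunits, SCN3B, a beta subunit, was at 1.51 and 1.64 CPM in the wild-type libraries, against 5.95 and 5.80 CPM in the mutant ones. The groups were far apart, and SCN3B was called higher with a log2 fold change of 1.89 (SE 0.22, edgeR adjusted p = 0.0270), also without any single library. SCN2B, SCN4B and SCN11A were not called, with log2 fold changes of 0.39, 0.76 and -0.26. SCN10A was at 0 counts in 3 libraries and 2 counts in the other.

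Of 12 tested sodium channel partners, 3 were called higher and 0 lower, against 3.71% and 2.1% of all tested genes. An unadjusted p under 0.05 in edgeR was found for 8 of the 12, against 29.8% of all tested genes. FGF12 and FGF13, intracellular factors that bind the channels and shift their inactivation, rose from 2.85 to 13.4 CPM (log2 fold change 2.23, edgeR adjusted p = 0.0212) and from 0.213 to 1.21 CPM (2.48, edgeR adjusted p = 0.0351). NFASC, the adhesion protein neurofascin of the axon initial segment and nodes, rose from 2.25 to 6.24 CPM (1.47, edgeR adjusted p = 0.0368). ANK3, the ankyrin that anchors sodium channels there, was at 31.8 ± 8.42 and 45.1 ± 0.609 CPM and was not called (log2 fold change 0.51, edgeR adjusted p = 0.16). SPTBN4 and CNTN1, at 0.98 and 0.99, were not called either. FGF14 had no count in 3 libraries. The FGF13 and NFASC calls were lost without either mutant library.

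No gene of the wider sodium machinery was called in edgeR. Of 9 tested relatives among calcium, endolysosomal and sperm cation channels, 4 reached an unadjusted p under 0.05 and 3 were higher in DESeq2. Over all 18984 tested genes DESeq2 called 1294 higher and 1206 lower. CACNA1G and CACNA1C, T-type and L-type calcium channels, were at 1.71 and 1.15 with edgeR adjusted p values of 0.0586 and 0.0576, and TPCN2, the most abundant of the list, was at 0.24. The 4 tested epithelial and acid-sensing channels, with ASIC1 at 0.14, and the 3 tested receptors and kinases that act on NALCN, with FYN at 0.08, gave no call in edgeR or DESeq2 and no unadjusted p under 0.05. Of 7 tested sodium pump genes none was called in edgeR, with 2 at an unadjusted p under 0.05 and 1 called higher by DESeq2. Of 14 tested exchangers and cotransporters none was called in edgeR, with 3 at an unadjusted p under 0.05 and 1 called higher by DESeq2. SLC12A2 was at -0.12, and its sign turned with total-count scaling (0.06). Over all 57 tested genes of these lists, with FAM155A, the further subunits and the partners included, 6 were called higher and 0 lower. The shares of all tested genes were 3.71% and 2.1%. The median log2 fold change of the 57 genes was 0.28. An unadjusted p under 0.05 was found for 21 of them (36.8%), against 29.8% of all tested genes.

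**Figure D4:**
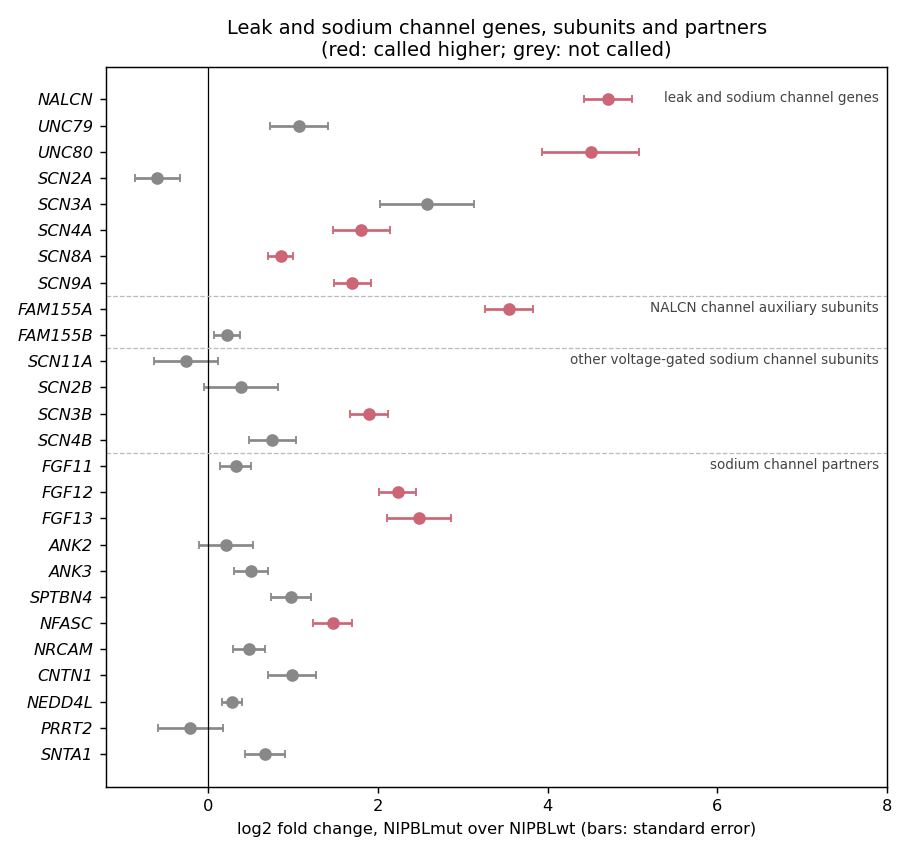
Log2 fold change of mutant over wild type for the tested leak and sodium channel genes, the other NALCN subunits, further sodium channel subunits and the sodium channel partners, with bars for the standard error. Red points were called in edgeR, and all of them lie to the right of 0.

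**Figure D5:**
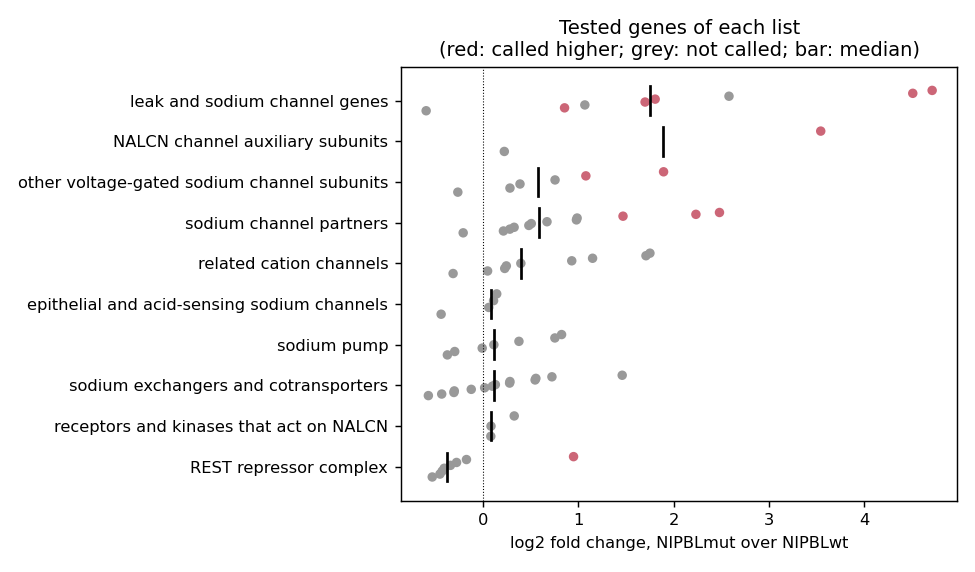
Log2 fold change of each tested gene by list, with the list median as a bar. Called genes (red) lie in the lists of leak and sodium channel genes, their subunits and partners and in the REST complex. The lists of related cation channels, epithelial channels, pump, exchangers, and receptors and kinases hold none, with 3 to 14 tested genes each. Of all tested genes, 3.71% were called higher and 2.1% lower, so lists of that size could hold none at the same shares.

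Markers of other cell types were read beside these genes. Of 10 tested neuronal markers, RBFOX3 (log2 fold change 2.95), MAP2 (2.33), STMN2 (4.77) and DCX (5.14) were called higher and none lower. Of all tested genes, 3.71% were called higher and 2.1% lower. The RBFOX3 call was lost in 3 of the alternative settings and the DCX call in 2, both on TPM. DCX also did not pass the stricter filter of 1 CPM in 2 libraries. NEFM, a neurofilament gene that neurons also express and that stands here among the 293 line markers, went from 68.3 ± 6.29 to 1.08 ± 0.352 CPM and was called lower (log2 fold change -5.98, edgeR adjusted p = 0.0086). MAP2 was not called without either mutant library. The summed level of all 12 was 76.7 and 85.0 CPM in the wild-type libraries, against 121 and 113 CPM in the mutant ones, while ELAVL3 and ELAVL4 were at or under 0.0967 CPM in each library. Of 7 tested skeletal muscle markers CKM (2.01) was called higher, MYOG had no count in any library and MYOD1 was not called. That list summed to 42.9 and 28.5 CPM in the wild-type libraries, against 45.9 and 47.6 CPM in the mutant ones. Of 7 tested glial markers GFAP (1.71) was called higher, with SOX10 at 0 counts throughout and sums of 37.9 and 30.7 CPM against 47.5 and 49.9 CPM. Of 5 tested fibroblast markers LUM and PDGFRB were called higher and COL3A1 lower, with COL1A2 at 0 counts and sums of 16.1 and 10.7 CPM against 21.1 and 21.2 CPM. Among the 293 markers KRT8 was called higher and VIM, NEFM and LIN28B lower, with sums of 1182 and 1335 CPM against 895 and 839 CPM. The CKM, GFAP, LUM, KRT8 and VIM calls were lost without either mutant library, that of COL3A1 without mutant replicate 1 and that of LIN28B without mutant replicate 2. The COL3A1 call was lost in 8 and the VIM call in 7 of the 16 alternatives. The part of these differences in the channel results was not tested.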

How the data were processed

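RNA from 2 NIPBLwt and 2 NIPBLmut 293FT libraries was depleted of ribosomal RNA and sequenced, per the labels' protocols. STAR 2.7.3a, RSEM 1.3.1 and hg38 are named per the submitters' processing notes. The annotation release is not given in the sources used here, nor is the strand setting. Per the file headers, the authors deposited expected counts, effective lengths, TPM and FPKM per gene, and the FPKM were not used. The deposited TPM are abundances scaled for effective length.

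Of 58174 identifiers, 57836 matched GENCODE release 29. Expected counts were rounded and tested in edgeR 4.0.16 (R 4.3.3) with filterByExpr, TMM scaling and robust quasi-likelihood tests. Benjamini-Hochberg adjustment ran over 18984 genes, with calls under an adjusted p of 0.05. The code was tested on simulated data. Total deposited expected counts were 31545743 and 33161120 (wild type) and 31932304 and 32768728 (mutant). The mean chi-square per gene was 45.5 between the wild-type and 3.97 between the mutant libraries. Each library was counted as a sample, though this measure cannot show whether they were separate cultures. Alternatives used DESeq2 1.42.0, limma 3.58.1 (voom and TPM with pseudocounts of 1 and 0.1), other scalings, filters, length offsets, a neighbourhood offset, a replicate block and each library left out.

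The genes and lists were chosen with earlier results of these data known. Named genes are all 9 genes, the called genes of each list or its most abundant tested gene, the nearest tested neighbours and the 3 genes most like NALCN in level. Others named with a value were chosen after their values were seen. Some genes that meet this rule are not reported here. Promoters are RefSeq's on GRCh38.p14.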

Additional observations from a re-analysis of the deposited data

How the results depend on the processing

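With 2 libraries per group, calls depend on how the spread is estimated. No tested leak or sodium channel gene changed direction in 16 alternatives: of 128 values, 97 kept the main call, 17 lost it and 14 gained it. The count called higher was 3 with effective length offsets, 3 with the neighbourhood offset, 2 with log2(TPM + 0.1), and 3 to 7 with 1 library left out. The count called lower was 0 to 1 with 1 library left out. The other listed genes called higher numbered 13 with DESeq2, 10 without a filter, 14 with the replicate block and 3 to 35 with 1 library left out, and those called lower 0 to 7. Over all tested genes, calls higher and lower were 1294 and 1206 with DESeq2, 443 and 167 with the neighbourhood offset, 1132 and 786 without a filter, and 1470 and 809 with the replicate block. Total counts gave 1112 higher, log2(TPM + 1) 119 lower and log2(TPM + 0.1) 110 lower. Leaving out 1 library gave 335 to 5909 higher and 64 to 5931 lower. The most calls came without wild-type replicate 1, where the spread comes from the close mutant pair alone. The replicates share only a number, with deviations correlated at -0.09. ASIC1 ran from -0.13 to 0.46 and FYN from -0.046 to 0.21 with 1 library left out. SLC12A2 ran from -0.35 to 0.12 and was 0.057 with total counts, 0.083 with log2(TPM + 1) and 0.089 with log2(TPM + 0.1). In those 3 settings the median over all genes was 0.17, 0.12 and 0.18, against -0.01. For SCN1A and the other genes of few counts, depth limits any comparison.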
